A study of Saccharomyces cerevisiae with 6 samples.

Results

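The ester genes EEB1, EHT1, ATF1, ATF2 and IAH1 were followed in low-Hsp90 yeast cells on 6 two-color oligonucleotide arrays. Members are ester synthases (EEB1, EHT1), alcohol acetyltransferases (ATF1, ATF2) and the esterase IAH1, without the ethanol acetyltransferase gene EAT1, which is treated as related. They were chosen by function, matched through the systematic ORF names, and selected with their array ratios already known, so the ratios of dox-treated over untreated cells are given as a description and support nothing. The 5 genes stand among 6377 ORFs on the array, and all 5 had a value on every one of the 6 arrays. Every array compared cells treated with dox (doxycycline, 5 μg/ml, 11 h) with untreated cells. Both sides carried the same genotype, TETp-HSC82 hsp82Δ arg4Δ lys5Δ car2Δ::URA3 in the R1158 background, and both were in log phase. In this strain HSP82 is deleted and the remaining Hsp90 gene, HSC82, is driven by a promoter that dox shuts off, so the untreated cells also lack HSP82. Cells without the tet promoter were not analysed here, so an effect of dox itself and the effect of less Hsp90 cannot be told apart. Culture 2 had heavy-labeled cells treated and culture 1 light-labeled cells, each with 3 technical arrays, so the number of independent cultures is 2.

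Esters form when an alcohol takes up an acyl group from acyl-CoA, and in yeast they are volatile by-products of fermentation with fruity and floral aromas. Atf1 and Atf2 are alcohol acetyltransferases that make acetate esters such as isoamyl acetate and ethyl acetate, and Atf2 also acetylates sterols. Eeb1 and Eht1 are related acyltransferases that join medium-chain acyl groups to ethanol and can also hydrolyze the resulting ethyl esters. Iah1 is an esterase that splits isoamyl acetate and other acetate esters, and so works against Atf1 and Atf2. The amount of an ester in the culture depends on these enzymes and on the supply of alcohol and acyl-CoA.

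The check of the treatment was HSC82 (YMR186W), whose log2 ratio lay between −6.43 and −5.48 over the 6 arrays. Its lowest values are near the floor of the table at −6.64, so its decrease may be larger than printed. The arrays held 6180 to 6353 values with medians between −0.03 and 0.02. Ratios were more spread in culture 1, where the SD over all ORFs was 0.52 to 0.61 per array, than in culture 2, where it was 0.40 to 0.45.

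EEB1 had the lowest ratio of the 5 genes. Its mRNA was lower in dox-treated cells on all 6 arrays, with a mean over cultures that corresponds to a 3.67-fold lower level, while EHT1, ATF1, ATF2 and IAH1 had means between −0.42 and −0.22 on the log2 scale. These 4 genes were lower in culture 1 and near 0 in culture 2, whereas EEB1 was lower in culture 2 than in culture 1. In mRNA of whole cultures, a change in every cell and a change in part of the cells cannot be told apart.

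EEB1 (YPL095C), which encodes the main synthase of medium-chain ethyl esters, had log2 ratios of −2.07, −2.04 and −2.37 on the arrays of culture 2. On the arrays of culture 1 it had −1.67, −1.81 and −1.29. No array of culture 2 reached the lowest array of culture 1, and the gap between the cultures was 0.23. The culture means were −2.16 ± 0.18 in culture 2 and −1.59 ± 0.27 in culture 1 (SD over 3 technical arrays each), and the mean of both was −1.88 (standard error of the 2 culture means 0.28). Only 0.175% of the ORFs with a value had a lower mean than EEB1 in culture 2 and 0.252% in culture 1. By the mean of both cultures EEB1 was number 8 from the bottom of 6290 genes.

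EHT1 (YBR177C), the relative of EEB1 that makes ethyl esters from overlapping substrates, had log2 ratios of 0.04, 0.12 and 0.0049 on the arrays of culture 2. In culture 1 it had −0.48, −0.46 and −0.52. All arrays of culture 2 lay above 0 and all arrays of culture 1 below it. The culture means were 0.06 ± 0.06 in culture 2 and −0.49 ± 0.03 in culture 1 (SD over 3 technical arrays each), so the mean of both, −0.22 (standard error of the 2 culture means 0.27), joins cultures of opposite sign. The ratio of EEB1 was lower than that of EHT1 on each of the 6 arrays. The difference between the 2 log2 ratios, EEB1 minus EHT1, averaged −2.22 in culture 2 and −1.10 in culture 1, and over single arrays it ran from −2.37 to −0.77.

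ATF1 (YOR377W), which encodes the major alcohol acetyltransferase, had log2 ratios of 0.02, −0.13 and −0.13 in culture 2. In culture 1 it had −0.46, −0.37 and −0.46. The arrays of culture 2 lay on both sides of 0 and did not overlap with those of culture 1. The culture means were −0.08 ± 0.09 in culture 2 and −0.43 ± 0.05 in culture 1, and the mean of both was −0.26 (standard error of the 2 culture means 0.18).

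ATF2 (YGR177C), the other alcohol acetyltransferase, had the widest spread of the 5 genes among the arrays of culture 2. Its log2 ratios were −0.46, 0.27 and 0.09 in culture 2. In culture 1 they were −0.76, −0.60 and −1.06. The first array of culture 2 came within 0.14 of the highest array of culture 1, and the other arrays of culture 2 were above 0. The culture means were −0.03 ± 0.38 in culture 2 and −0.81 ± 0.23 in culture 1, and the mean of both was −0.42 (standard error of the 2 culture means 0.39). The ratio of ATF2 was below that of ATF1 on all 3 arrays of culture 1 and on 1 array of culture 2. Proteins of both acetyltransferase genes are on the study's list of downregulated proteins, while those of EEB1, EHT1 and IAH1 are on neither its upregulated nor its downregulated list. Both lists hold only proteins that changed by more than 1.5-fold. A protein on neither may have changed less or may not have been detected.

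IAH1 (YOR126C), the esterase, had log2 ratios of −0.14, −0.24 and −0.13 in culture 2. In culture 1 it had −0.71, −0.59 and −0.52. It was below 0 on all 6 arrays, like EEB1, but its arrays stayed between −0.71 and −0.13. The culture means were −0.17 ± 0.06 in culture 2 and −0.61 ± 0.10 in culture 1, and the mean of both was −0.39 (standard error of the 2 culture means 0.22).

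**Figure D1:**
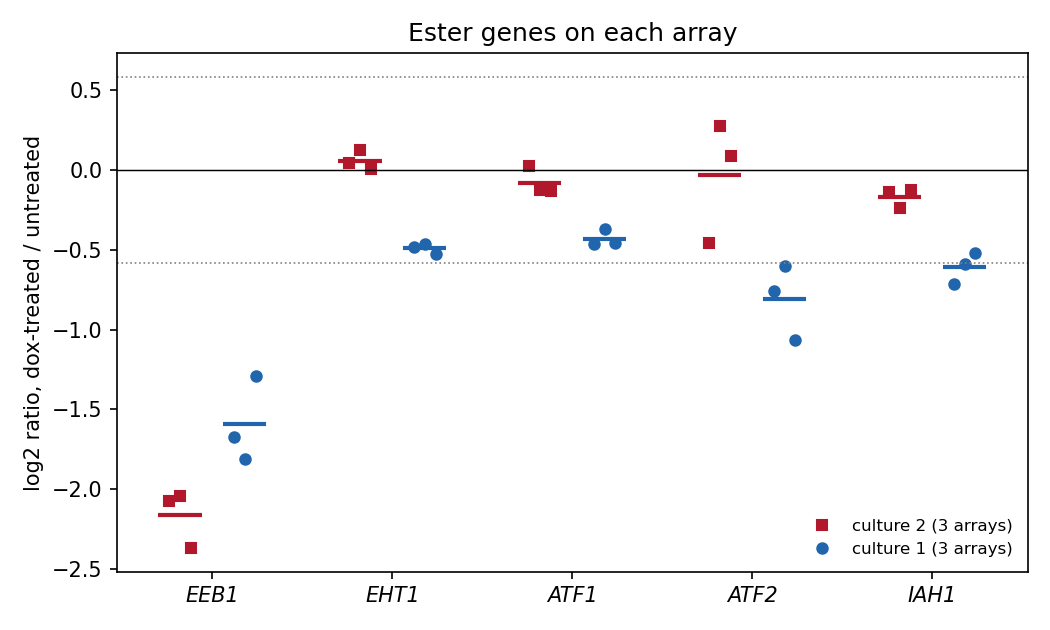
Log2 ratio of dox-treated over untreated cells (vertical axis) for the 5 ester genes (horizontal axis). Squares are the 3 technical arrays of culture 2 and circles those of culture 1, short bars are culture means and dotted lines mark 1.5-fold in either direction. EEB1 lies between −2.37 and −1.29 on all arrays, and the other 4 genes lie lower in culture 1 than in culture 2.

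A gene was taken as misregulated at the mRNA level if the mean over the cultures exceeded 1.5-fold with an unadjusted p below 0.05 (limma over 2 culture means). The thresholds of this criterion are those of the methods, which name no test, so calls can differ from the paper's. By the values already given, 1 of the 5 ester genes lay past the criterion, EEB1, as lower. Of all 6290 genes tested, 4.74% met it as lower and 5.74% as higher, 10.5% in all, and nothing is read from the share among the ester genes because their ratios were known when they were chosen. The ester genes had a median of −0.08 in culture 2 and −0.61 in culture 1, and the medians of all genes tested were 0.02 in culture 2 and −0.02 in culture 1. By fold alone, a ratio more than 1.5-fold below 1, 1 of the 5 genes passed in culture 2 (4.02% of all genes tested), and 3 passed in culture 1, namely EEB1, ATF2 and IAH1 (8.3% of all genes tested). The paper lists IAH1 among transcription factor targets whose mRNA changed significantly in low-Hsp90 cells.

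**Figure D2:**
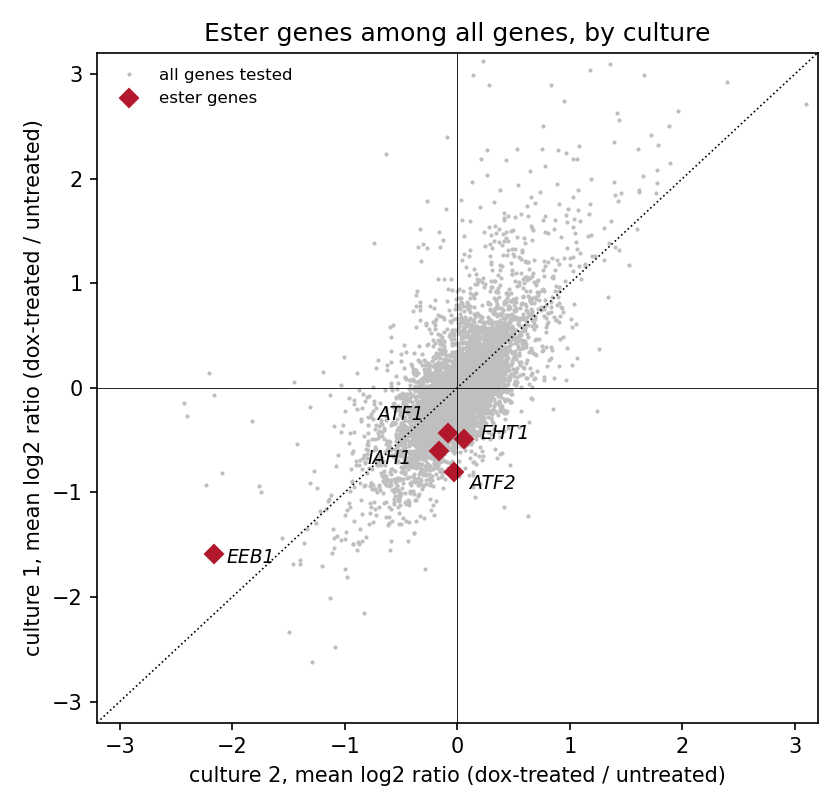
Mean log2 ratio (dox-treated over untreated) in culture 2 (horizontal axis) and in culture 1 (vertical axis) for the 6290 genes tested (gray points, 14 of which lie outside the axes) and the 5 ester genes (diamonds). The dotted line marks equal ratios. EEB1 lies near the lower left edge, above the line, and the other 4 genes lie below the line at ratios between −0.81 and 0.06.

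The cultures were then set against each other. The ratios of the ester genes in each culture were also known when the genes were chosen, so their differences are a description too, and nothing is read from the counts beside those of all genes. The standard errors and calls come from 3 technical arrays against 3 and measure the spread between arrays of these cultures only. Isotope label and culture change together and cannot be told apart. For all 5 genes the arrays of the cultures did not overlap. This held for 42.3% of the 6153 genes with 6 values. In 4 of the 5 genes culture 2 was the higher one, as in 24.4% of those genes. By limma with Benjamini-Hochberg adjustment over 6241 genes, all 5 differences had an adjusted p below 0.05, against 22.3% of all genes. The 4 genes that were higher in culture 2 compare with 12.4% of all genes called in that direction.

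In the deposited values the widest difference was that of ATF2, with 0.78 (culture 2 minus culture 1, limma standard error 0.19). It was the only one of the 5 called at an adjusted p below 0.05 with over 1.5-fold, a combination met by 7.35% of all genes. EHT1 differed by 0.55 (standard error 0.08), IAH1 by 0.44 (standard error 0.09) and ATF1 by 0.35 (standard error 0.09). EEB1 differed in the opposite direction, by −0.57 (standard error 0.15), just below the 1.5-fold threshold of 0.585. The order depended on the scaling. With the arrays brought to a common spread, EEB1 differed by −1.04 and ATF2 by 0.70, and after quantile normalization EEB1 differed by −0.92 and ATF2 by 0.69. ATF1, at 0.28, no longer had an adjusted p below 0.05 in limma with a common spread.

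With any single array left out, each difference kept its sign. At an adjusted p below 0.05 alone (limma), without the fold threshold, EHT1 passed throughout. The other 4 genes each depended on single arrays there. ATF2 no longer passed without the third array of culture 2 (0.72) or the third array of culture 1 (0.65). EEB1 no longer passed without the third array of culture 2 (−0.46) and without the first or the third array of culture 1 (−0.61 and −0.42). ATF1 no longer passed without the third array of culture 2 (0.38) and without the first or the second array of culture 1 (0.34 and 0.38). IAH1 no longer passed without the third array of culture 2 (0.42). With the fold threshold as well, EEB1 passed without the second array of culture 1 and without the first or the second array of culture 2.

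**Figure D3:**
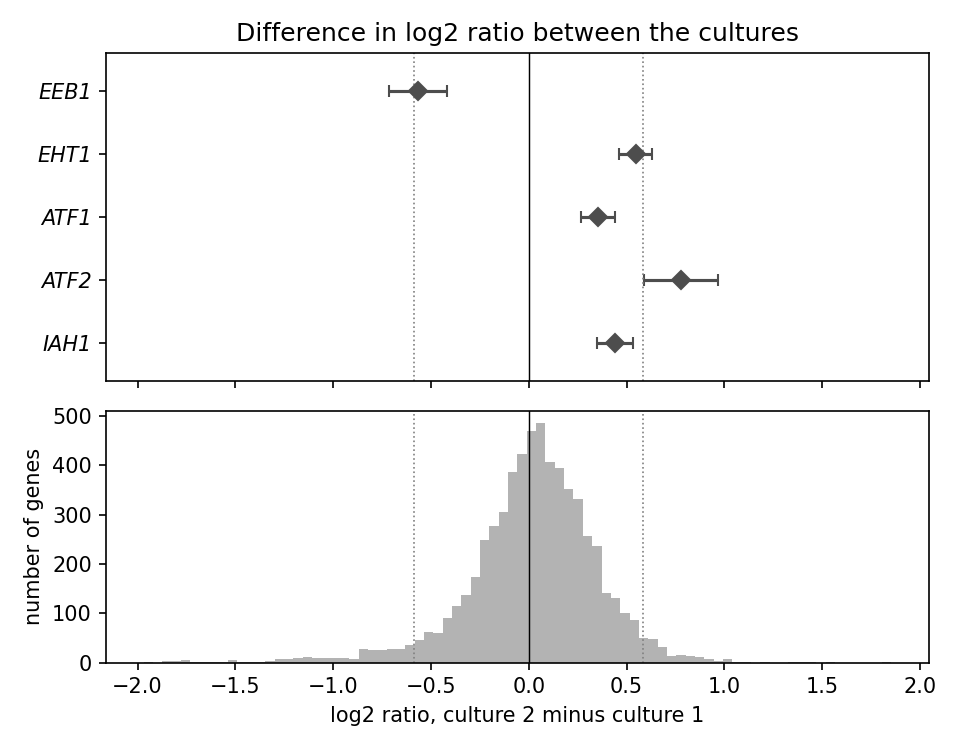
Upper panel, difference in log2 ratio between the cultures (horizontal axis, culture 2 minus culture 1) for the 5 ester genes, with bars of 1 standard error from limma over 3 arrays against 3. Lower panel, the same difference for the 6241 genes tested (21 lie outside the axis), with dotted lines at 1.5-fold. EEB1 is the one ester gene on the negative side, at −0.57, and the others lie between 0.35 and 0.78.

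Genes whose ratios were most like that of EEB1 were found by the root mean square difference over the 6 arrays, among 6153 genes with 6 values. The nearest was MFA1, an a-factor gene, at a distance of 0.46 (−1.56 in culture 2 and −1.43 in culture 1). CHA1, the catabolic serine deaminase, followed at 0.50 (−2.23 in culture 2 and −0.93 in culture 1), and then AGA2, an a-agglutinin subunit, at 0.53, PRM5, a pheromone-regulated gene, at 0.57, and SHM2, the cytosolic serine hydroxymethyltransferase, at 0.59. For ATF2, the ester gene with the second largest mean, the nearest were SPT14 at 0.17, UTP10 at 0.18 and SET6 at 0.18. Within a distance of 0.5 lay 1449 genes for ATF2 and 1 for EEB1, so the smaller distances of ATF2 do not mark closer partners. This is a description over 6 arrays of 2 cultures.

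The genes next to each ester gene in the R64 annotation were examined after the values of the ester genes had been seen. Of 10 neighbors, 9 had values, and 1 met the criterion, as did 10.5% of all genes tested. It was AMF1 beside ATF1, with a mean of 0.76 (0.51 in culture 2 and 1.02 in culture 1). The neighbors of EEB1 were PNG1, with a mean of 0.17, and SEC62, with −0.19. ERG1, which encodes squalene epoxidase and lies next to ATF2, had 0.77 in culture 2 and 0.10 in culture 1. RGA1, next to IAH1, had −0.29 in culture 2 and −0.74 in culture 1. No neighbor on the array had a mean as low as that of EEB1.

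The ratios of further ester and lipid enzymes were nearer to 0 than that of EEB1. None of 7 related hydrolases and acyltransferases met the criterion, beside 10.5% of all genes tested. Their median was −0.07 in culture 2 and −0.04 in culture 1. At an unadjusted p below 0.05 alone, 2 of the 7 passed in limma, MGL2 and TGL1, beside 29.1% of all genes tested. MGL2, which encodes a lipase similar in sequence to Eeb1 and Eht1, had −0.38 in culture 2 and −0.49 in culture 1 (limma, adjusted p = 0.0873). TGL1, a steryl ester hydrolase gene, had 0.45 in both cultures (adjusted p = 0.0802) and was the member of the list with the largest mean. EAT1, the gene of an ethanol acetyltransferase, had −0.07 in culture 2 and 0.15 in culture 1. SAY1, whose product removes the acetyl group that Atf2 puts on sterols, had 0.06 in culture 2 and −0.10 in culture 1.

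The supply of acyl groups was examined next. In the list of acetate and acetyl-CoA supply, 4 of 8 genes met the criterion, 3 higher and 1 lower, beside 5.74% and 4.74% of all genes. ALD6, the main cytosolic acetaldehyde dehydrogenase gene, was lower, with −1.11 in culture 2 and −1.35 in culture 1 (limma over both cultures, mean −1.23 with a standard error of 0.13 and adjusted p = 0.0201), and it was below 0 on all 6 arrays. The stress-induced dehydrogenase genes ALD3 (mean 2.11, adjusted p = 0.0545) and ALD2 (mean 0.91, adjusted p = 0.0482) were higher, as was ACS1, an acetyl-CoA synthetase gene (mean 1.09, adjusted p = 0.0541). ALD3 had 1.18 in culture 2 and 3.04 in culture 1, and ACS1 had 0.67 in culture 2 and 1.51 in culture 1. The size of both increases thus depended on the culture. ACS2, the acetyl-CoA synthetase gene used during growth on glucose, had −0.18 in culture 2 and −0.58 in culture 1 and did not meet the criterion. The median of this list was −0.04 in culture 2 and 1.21 in culture 1. Of its 8 genes, 4 differed between the cultures at an adjusted p below 0.05 with over 1.5-fold (limma over the technical arrays), all of them lower in culture 2. This combination was met by 7.35% of all genes in either direction.

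Beside 10.5% of all genes tested, 1 of 11 genes of fatty acid synthesis and activation met the criterion. This was OLE1, the fatty acid desaturase gene, which was higher, with 0.81 in culture 2 and 0.71 in culture 1 (limma over both cultures, mean 0.76 with a standard error of 0.12 and adjusted p = 0.0361). ATF1 shares with OLE1 a known repression by unsaturated fatty acids, and its ratio on the same arrays averaged −0.08 in culture 2 and −0.43 in culture 1. The fatty acid synthase genes FAS1 (0.47 in culture 2 and −0.06 in culture 1) and FAS2 (0.18 in culture 2 and 0.05 in culture 1) and the acetyl-CoA carboxylase gene ACC1 (0.11 in culture 2 and 0.26 in culture 1) did not meet it.

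On the side of the alcohols, 1 of 17 genes met the criterion, beside 10.5% of all genes tested. ADH7, a gene of a medium-chain alcohol dehydrogenase, was higher, with 0.72 in culture 2 and 0.75 in culture 1 (limma over both cultures, mean 0.74 with a standard error of 0.12 and adjusted p = 0.0371). The branched-chain aminotransferase genes, whose products start the path to isoamyl alcohol, had opposite signs, with means over both cultures below 1.5-fold. BAT1 had −0.49 in culture 2 and −0.64 in culture 1 (adjusted p = 0.0589), and BAT2 had 0.36 in culture 2 and 0.77 in culture 1 (adjusted p = 0.0828). The arrays of BAT2 in culture 1 were far apart, at −0.07, 1.18 and 1.21. BAT2 met the criterion without the first array of culture 1, and BAT1 met it without the third. ARO10, one of several decarboxylase genes in the list, had −0.10 in culture 2 and 1.71 in culture 1, a difference of −1.81 (adjusted p = 0.000245 from limma over the technical arrays). The remaining genes of the list had means between −0.57, for ADH2, and 0.41, for ADH6.

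Regulators and phospholipid genes came last. INO2, which encodes an activator of phospholipid genes and the partner of Ino4, was the 1 of 11 regulator genes that met the criterion, beside 10.5% of all genes tested. It had −0.37 in culture 2 and −1.07 in culture 1 (limma over both cultures, mean −0.72 with a limma standard error of 0.19 and adjusted p = 0.0841). Its standard error of the 2 culture means, the kind given for the ester genes, was 0.35. INO4 itself had −0.36 in culture 2 and −0.56 in culture 1 and was below 0 on all 6 arrays without meeting the criterion. Of 11 Ino2/Ino4 targets with values, 1 met the criterion, again beside 10.5% of all genes tested. It was the choline transporter gene HNM1, with −0.44 in culture 2 and −0.74 in culture 1 (limma over both cultures, mean −0.59 with a limma standard error of 0.13 and adjusted p = 0.0656). The median of these targets was −0.07 in culture 2 and −0.44 in culture 1. INO1, the best known target, had 0.26 in culture 2 and 0.03 in culture 1. The paper lists IAH1, CHO1 and ITR1 among Ino4 targets with significantly changed mRNA in low-Hsp90 cells. Their means over both cultures were −0.39, −0.45 and −0.57, each short of 1.5-fold, so they did not meet the criterion as tested here. Over all 6 lists, 8 of 65 genes met the criterion, 5 higher and 3 lower, beside 10.5% of all genes tested, 5.74% higher and 4.74% lower. The counts of 1 in a list or among the neighbors are not read as a result. HNM1 was just past the fold threshold and fell short of it without the third array of culture 1 (mean −0.57) or the first array of culture 2 (mean −0.55). With a single array left out, the highest adjusted p was 0.0509 for ALD6, 0.0638 for OLE1, 0.0641 for ADH7 and 0.0862 for ALD2, the 4 genes past the adjusted threshold. No adjusted p of the 8 genes was below 0.05 once each array was centered on its median (0.0863 to 0.136).

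**Figure D4:**
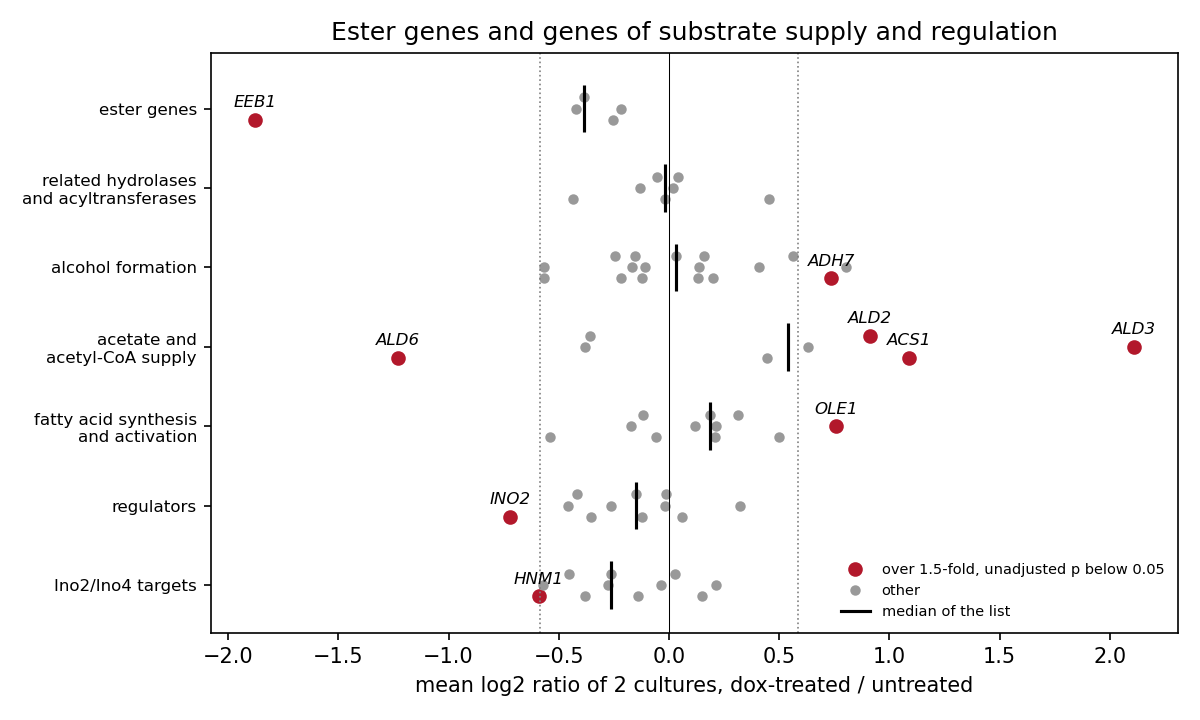
Mean log2 ratio of 2 cultures (horizontal axis, dox-treated over untreated) for the ester genes and 6 lists of related genes (rows). Each point is a gene, large named points exceeded 1.5-fold with an unadjusted p below 0.05 in limma, black bars are list medians and dotted lines mark 1.5-fold. EEB1, at −1.88, is further below 0 than ALD6, at −1.23, the lowest of the related genes.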

How the data were processed

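RNA of dox-treated and untreated cells was hybridized to homemade two-color arrays, with no swap of the dyes, so a dye effect on a single gene and the treatment cannot be told apart. GeneSpring GX was used by the authors for LOWESS normalization within arrays, and the deposited values are log2 ratios, 1 per ORF and array. The log2 scale was inferred from a floor at a ratio of 0.01, and the direction was taken from the sample titles. Background correction and spot filters are not given in the sources used here. Intensities were not analysed here. The precision is limited by the number of independent cultures, 2, because the arrays of a culture are technical. All columns belonged to the series.

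After removal of the probe suffix, gene symbols were found for 5797 of 6377 rows in the R64 annotation. Ratios were averaged within cultures and tested against 0 with limma (version 3.58.1, R 4.3.3) over 6290 genes with values in both cultures. Cultures were compared over technical arrays for 6241 genes with at least 2 values in each. Both fits were tested on simulated data. The named genes are the 5 ester genes, HSC82, list genes that met the criterion or led a list without one, and nearest genes by root mean square difference (5 for the ester gene with the largest mean and 3 for the next). Members and lists were chosen with earlier results of these data known, and further genes were named after their values were seen. PIS1 had no value. Alternatives covered the p and fold thresholds, the replicate unit, centering, scaling, missing values, and arrays or cultures left out. Sequences were not analysed here.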

Additional observations from a re-analysis of the deposited data

Results flagged for a closer look

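The ratios of 2 ester genes were picked out because they differed between the cultures in 3 technical arrays against 3. ATF2, with a difference of 0.777 on the log2 scale (culture 2 minus culture 1), was picked out because it was the one ester gene past 1.5-fold among those with an adjusted p below 0.05 in limma. EHT1, with a difference of 0.546, was picked out because all arrays of culture 2 lay above 0 and all arrays of culture 1 below it. The ratios in each culture were known when the genes were chosen, so both differences are a description. No array of an ester gene stood apart from the other 5 by Dixon's test. The largest gap was 0.352 of the range, for EEB1, below the critical value for 6 arrays. This test pooled the arrays of both cultures, which did not overlap for any ester gene. It could therefore miss an array that departed from its own culture.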

How the results depend on the processing

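EEB1 met the criterion under every alternative tried with the unadjusted p or the fold alone, and its mean stayed between −2.16 and −1.59. All alternatives reuse the same 6 arrays, whose ratios were known when the ester genes were chosen, so this is a description. The means of ATF1, ATF2 and IAH1 were below 0 under all 13 alternatives, and that of EHT1 was above 0 in culture 2 alone (0.06). The number of ester genes past the criterion was 1, and 2 with the p alone (EEB1 and IAH1), 1 to 3 with a culture or an array left out, and 0 with the adjusted p after median centering, a combination chosen once the data were known. The number of related genes was 8. It was 4 with the adjusted p, 3 at 2-fold, 25 with the p alone and 0 with the adjusted p after centering. With a culture or an array left out it ran from 7 to 18, and with an array left out under the adjusted p, also added later, from 0 to 6. With a culture left out, both counts are by fold alone, since 1 culture leaves no test. HNM1 missed the criterion after scale or quantile normalization. The number of ester genes that differed between the cultures was 1. It was 2 with centering or scale normalization (ATF2 and EEB1), 5 with the adjusted p alone, 0 with the exact permutation test, which cannot pass here, and 0 to 2 with an array left out. The cause was not tested. With 2 cultures and no signal intensities, neither dim spots nor small changes can be judged.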
